A study of Mus musculus with 18 samples.

Results

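The miR-148/miR-152 family is the set of mouse microRNAs (miRNAs) cut from the hairpins of the genes Mir148a, Mir148b and Mir152. The members described here are the deposited rows named mmu-miR-148a-3p, mmu-miR-148a-5p, mmu-miR-148b-3p and mmu-miR-152-3p, 4 of 1966 miRNAs. miR-148a-3p was selected on its large share of the reads in these same libraries, and the others were chosen by name as its partner arm and the miRNAs with the same seed. Level and share of the members are therefore given as a description, without a test between groups. A screen for outlying libraries within TI and TIM, given at the end, does include them. Tests were kept to measures that did not choose them, namely the 2 remaining arms of the hairpins (miR-148b-5p and miR-152-5p), the variation between tumor libraries and a list of other miRNAs. These are not a blind choice either. The list was chosen with earlier results of these data known, and the 2 arms come from the same hairpins as members.

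Small RNA was sequenced in 18 libraries from mouse tissue, to compare neuroblastoma tumors induced by the RNA-binding protein IGF2BP1, alone or with the transcription factor MYCN, to normal adrenal gland. The 3 wildtype adrenal glands (AG) were organs labelled CRE -. The 7 R26IGF2BP1 tumors (TI) were CRE +, and their labels give IGF2BP1 +/+ for 6 and IGF2BP1 +/- for 1. The 8 R26IGF2BP1/MYCN tumors (TIM) were labelled IMP1/MYCN and CRE +, IMP1 being another name of IGF2BP1. By the study's methods the transgenes sat behind a stop cassette at the Rosa26 locus, and the Cre recombinase was driven by Dbh, a gene of noradrenergic cells, so that induction occurred in adrenal glands and peripheral nerves. The tumors were not all of one site: 1 of 7 TI and 2 of 8 TIM were labelled as adrenal gland tumors and 1 TIM as a spine tumor, the remainder only as tumors. The table's columns name the group but not the animal, so genotype and site could not be assigned to single libraries, and library numbers below are only the place of a column within its group. Nothing in the labels says whether samples of a group shared an animal, a litter or a sequencing run. The paper reports more R26IGF2BP1/MYCN tumors than animals, so some TIM libraries may come from the same mouse. The errors given here are the spread between these samples, and the tests treat each library as independent, which could not be checked.

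A miRNA guides an Argonaute protein to messenger RNAs that pair with its seed, the stretch that follows its first base, and lowers their translation and stability. Usually one arm of the hairpin, the guide, is retained and its partner is degraded. Guides that share a seed share most predicted targets, and for the miR-148/miR-152 guides the maintenance DNA methyltransferase DNMT1 is a well-known one. miR-148a is known as an abundant miRNA of the liver and other differentiated tissues, and miR-152 lies in a host gene with which it can be transcribed.

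The mature arms are shown because their likeness decides which reads can be told apart. The sequences are from RefSeq (GRCm38.p6, the assembly of the mm10 build to which the authors aligned), where all 6 arms were found, and run from 5′ to 3′ with the seed (bases 2 to 8) in capitals.
miR-148a-3p: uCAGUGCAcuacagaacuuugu
miR-148b-3p: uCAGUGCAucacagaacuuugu
miR-152-3p: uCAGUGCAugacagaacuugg
miR-148a-5p: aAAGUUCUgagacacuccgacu
miR-148b-5p: gAAGUUCUguuauacacucaggcu
miR-152-5p: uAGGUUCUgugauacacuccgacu

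The seed CAGUGCA was held by 3 of 1679 mature mouse miRNAs in the RefSeq table, the 3 guides above. The 3p guides of miR-148a and miR-148b are identical at 20 of 22 positions, counted from 1 at the 5′ end, and differ by C9U and U10C. miR-148a-3p and miR-152-3p are identical at 18 of 21 positions and differ by C9U, U10G and U20G, and miR-148b-3p and miR-152-3p differ by C10G and U20G. The differences lie outside the seed, so each guide can be read apart only from a few bases of its middle and end. How the authors' counting treated reads that match more than 1 of these guides is not given in the sources used here. The level of miR-148b-3p and miR-152-3p is thus uncertain wherever miR-148a-3p is far more abundant. The 5p arms differ more, and the seed of miR-152-5p, AGGUUCU, was held by no other mature miRNA in the table.

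The hairpin of miR-148a is printed whole as the source of the most abundant member. It lies on the minus strand at chr6:51269812-51269910 of GRCm38.p6, and the capitals mark its 5p and 3p arms.
Mir148a: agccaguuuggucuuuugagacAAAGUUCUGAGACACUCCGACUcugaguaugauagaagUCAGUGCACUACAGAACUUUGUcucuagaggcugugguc

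The hairpin of miR-148b lies at chr15:103285125-103285221 within Copz1, and that of miR-152 at chr11:96850393-96850465 within Copz2, both on the plus strand. These host genes encode paralogous subunits of the coatomer complex of transport vesicles. In the GENCODE annotation of GRCm39 both hairpins overlapped 0 exons of their host and were thus intronic. The hairpin of miR-148a lay in that annotation within the non-coding genes Gm38821, of which it overlapped 0 exons, and Gm66906, of which it overlapped 1 exon.

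The 18 libraries held between 11641696 and 23435621 reads assigned to miRNAs. The deposited unit is CPM (reads scaled to a fixed library total) of the total multiplied by a TMM factor, a scaling factor that edgeR sets from the bulk of the miRNAs, which was 0.927 to 0.991 in AG, 0.700 to 0.934 in TI and 0.802 to 1.85 in TIM. A level in CPM can therefore be larger or smaller than the plain share of reads, and both are given. With 3 reads as the floor, the lowest detectable level was between 0.101 and 0.272 CPM, and each arm was above it in each library, with a minimum of 7 reads for miR-152-5p. The 95% exact (Clopper-Pearson) binomial intervals of the shares, which cover counting error only, reached at most ±0.0277 percentage points for miR-148a-3p. Relative to the share itself they reached 0.278% for miR-148a-3p, 7.52% for miR-148a-5p, 2.4% for miR-148b-3p and 5.48% for miR-152-3p. Depth therefore added little to the spread between libraries for the 4 members. For miR-152-5p the interval reached 82.9% of the share in TI library 6 with 7 reads. TI library 1 held 10 reads of it, and the remaining tumor libraries held at least 41.

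One library stands apart. In TI library 5 miR-148a-3p took 2.29% of the reads, the lowest of all libraries, against 30.1% to 61.9% in the remaining TI libraries. On the deposited CPM scale this library also had the highest sums in its group of the miRNAs that mark several cell types. These were smooth muscle (171131 CPM), neuroendocrine cells (246328 CPM), endothelium (6736 CPM), erythroid cells (3649 CPM) and the epithelium of liver, gut and kidney (1170 CPM). It had the lowest sums of neuronal (3782 CPM) and of general epithelial miRNAs (15.1 CPM). Their part in its low miR-148a-3p was not tested. The main values for TI are given with and without it. In these bulk samples, fewer cells of a type and less RNA per cell cannot be told apart.

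miR-148a-3p was the most abundant miRNA on average in both tumor types. It made up 6.94%, 4.19% and 4.91% of the reads in the 3 AG libraries, or 5.35% ± 1.42 (SD, n = 3). In TI its share was 2.29% at the lowest, 45.2% at the median and 61.9% at the highest (40.7% ± 20.0, SD, n = 7), and without library 5 it was 47.2% ± 11.6 (SD, n = 6). In TIM it was 6.53% at the lowest, 19.5% at the median and 44.2% at the highest (19.6% ± 11.4, SD, n = 8). All TI libraries but library 5 thus lay above the highest AG share, so that in TI a single miRNA took up to 61.9% of the reads. It ranked first among all miRNAs in 6 of 7 TI and 6 of 8 TIM libraries, at worst place 3 in TIM, place 10 in TI library 5, and place 4 or 5 in AG.

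**Figure D1:**
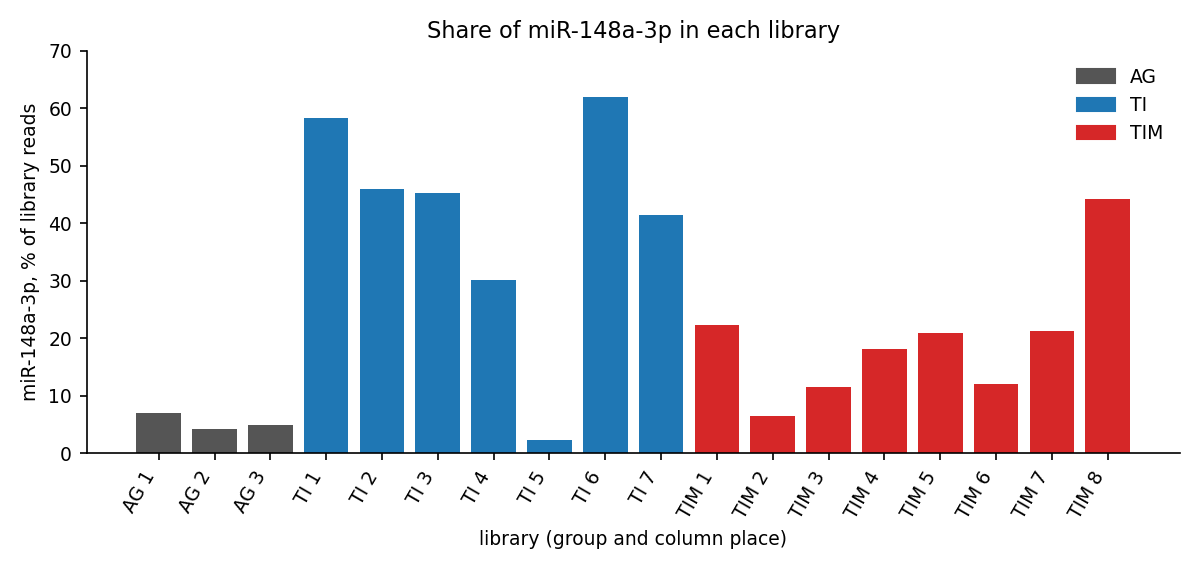
Bars give the share of miR-148a-3p in the reads of each library in percent (axis from 0), colored by group (AG grey, TI blue, TIM red). The 3 AG bars lie between 4.19% and 6.94%, and TI library 5 at 2.29% is the lowest bar of the plot.

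The miRNAs with the largest mean share give the scale of this change. In AG these were miR-143-3p (16.0%), a miRNA of smooth muscle, miR-21a-5p (7.85%), miR-7a-5p (5.85%), miR-10a-5p (5.84%) and then miR-148a-3p. In TI miR-148a-3p was followed by miR-7a-5p (6.29%), miR-143-3p (5.90%), miR-218-5p (4.92%) and miR-21a-5p (4.54%). In TIM the order was miR-148a-3p, miR-7a-5p (10.1%), miR-21a-5p (6.19%), miR-143-3p (5.58%) and miR-218-5p (5.41%). The reads left for all other miRNAs were 93.1% to 95.8% in AG, 38.1% to 97.7% in TI and 55.8% to 93.5% in TIM.

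On the CPM scale miR-148a-3p was at 74850, 42331 and 52312 in AG. In TI it was at 25964 at the lowest, 574112 at the median and 831523 at the highest, and without library 5 at 352725 at the lowest. In TIM it was at 49778 at the lowest, 158780 at the median and 551329 at the highest. In TI 6 of 7 libraries lay above every AG library and 1 below, and in TIM 5 of 8 lay above and 3 within the AG range. The mean of TI was 8.93-fold and that of TIM 3.37-fold the mean of AG. On the log2(CPM + 1) scale the difference from AG was 2.73 (SE 0.87) in TI, 3.36 (SE 0.59) without library 5, and 1.36 (SE 0.85) in TIM.

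Between the tumor types, the mean level of miR-148a-3p was 2.65-fold higher in TI than in TIM. The log2 difference of TIM from TI was -1.37 (SE 0.65), and -2.0 (SE 0.45) without TI library 5. The ranges overlapped, since TIM library 8 at 551329 CPM lay close to the TI median and TI library 5 below every TIM library.

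miR-148a-5p, the partner arm of the same hairpin, was far less abundant and followed the same order of groups. It was at 110, 53.1 and 64.9 CPM in AG. In TI it was at 37.0 CPM at the lowest, in library 5, 760 at the median and 1901 at the highest (856 ± 642, SD, n = 7, and 993 ± 581, n = 6, without library 5). In TIM it was at 67.9 at the lowest, 243 at the median and 1618 at the highest (440 ± 503, SD, n = 8). In TI 6 of 7 libraries and in TIM 7 of 8 lay above all AG libraries. The means were 11.2-fold and 5.78-fold that of AG, and without TIM library 8, the highest of its group, TIM was at 272 ± 176 CPM (SD, n = 7) or 3.57-fold. These came with log2 differences of 2.88 (SE 0.96; 3.51, SE 0.73, without TI library 5) and 2.0 (SE 0.94). TIM differed from TI by -0.88 (SE 0.72) on the log2 scale, and by -1.51 (SE 0.56) without TI library 5.

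The reads of miR-148a-3p per read of miR-148a-5p numbered 678 to 806 in AG, 421 to 1947 in TI with a median of 464, and 271 to 1007 in TIM with a median of 463. The tumor libraries thus lay on both sides of AG, and the highest ratios were those of TI libraries 3 and 6.

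miR-148b-3p, the guide that differs from miR-148a-3p at 2 positions, was at a moderate level and lower in tumors on the deposited scale. It was at 928, 766 and 880 CPM in AG. In TI it was at 502 at the lowest, 599 at the median and 767 at the highest, and in TIM at 471, 605 and 623. All TIM libraries lay below AG, and 6 of 7 TI libraries did, while TI library 3 lay just above the lowest AG library. The mean of AG was 1.44-fold that of TI and 1.48-fold that of TIM, with log2 differences of -0.53 (SE 0.20; -0.49, SE 0.21, without TI library 5) and -0.57 (SE 0.20). TIM and TI differed by -0.04 (SE 0.15).

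The lower level of miR-148b-3p rested on the scaling. When the library totals were computed without the reads of miR-148a-3p, the log2 difference from AG was -0.0051 in TI and 0.026 in TIM. Without the TMM factor it was -0.74 in TI and -0.22 in TIM. Over all 726 miRNAs tested, the median log2 difference was -0.01 in TI and 0.18 in TIM on the deposited scale, and 0.34 and 0.57 on totals without miR-148a-3p, so that this scaling raised the values in general.

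miR-152-3p, the remaining guide with this seed, moved the other way from miR-148a-3p. It was at 3191, 3593 and 4067 CPM in AG. In TI it was at 94.9 at the lowest, 445 at the median and 746 at the highest (391 ± 227, SD, n = 7), and in TIM at 211, 292 and 991 (464 ± 306, SD, n = 8). No tumor library reached the AG range. The mean of AG was 9.26-fold that of TI and 7.80-fold that of TIM, with log2 differences of -3.48 (SE 0.59; -3.56, SE 0.62, without TI library 5) and -3.21 (SE 0.58). The difference lay between -3.69 and -2.96 for TI, and between -3.25 and -2.61 for TIM, over 5 alternatives of scaling and pseudocount. TIM differed from TI by 0.27 (SE 0.44).

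**Figure D2:**
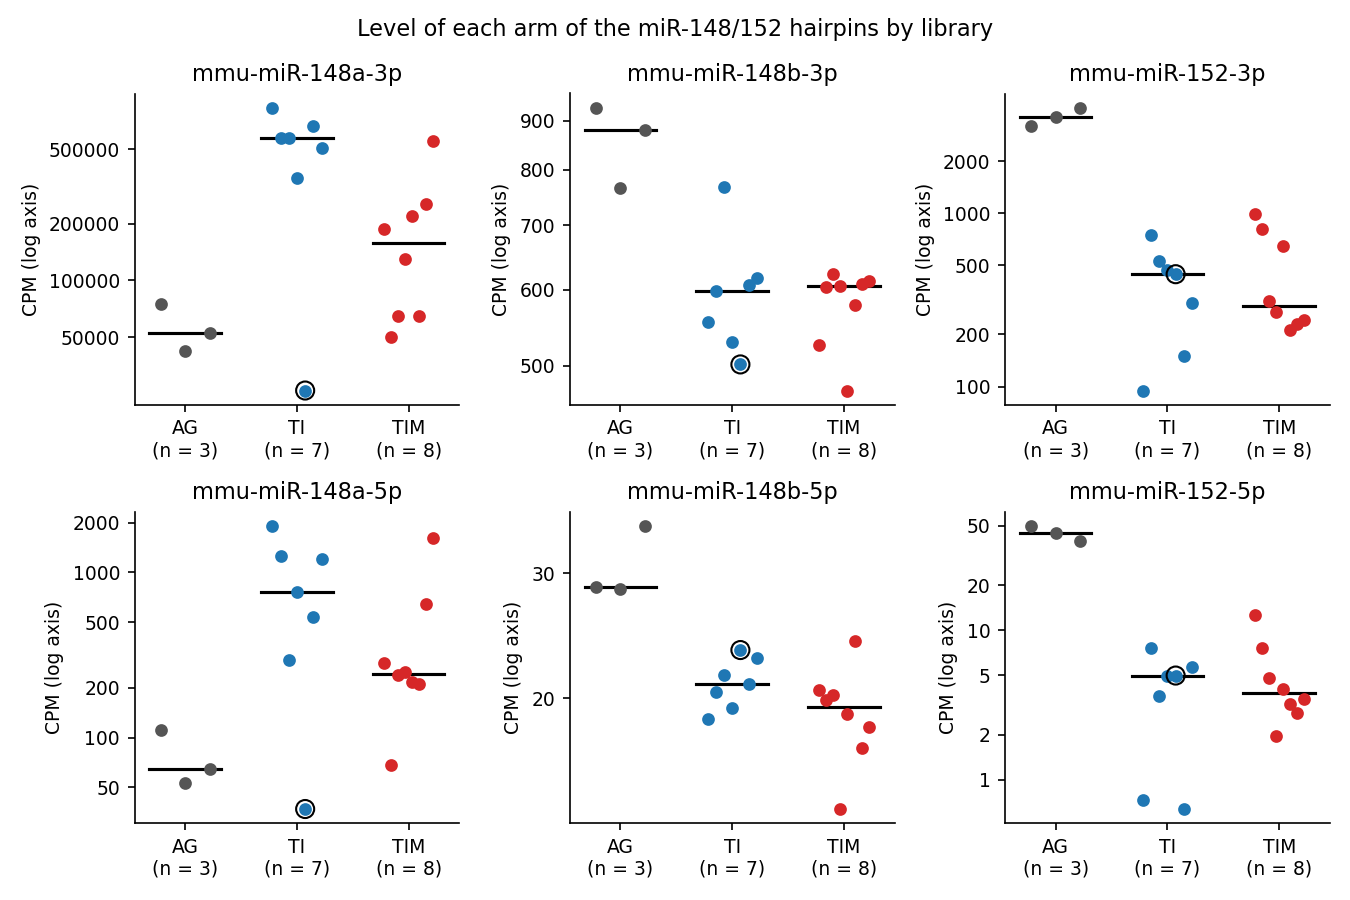
Points give the level in CPM (log axis) of each of the 6 arms in each library of AG (grey, n = 3), TI (blue, n = 7) and TIM (red, n = 8), lines the median, and the circle TI library 5. miR-148a arms are higher in most tumors, miR-152 arms are lower in all, and miR-148b arms differ by less than 2-fold between the group means on this scale.

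Together the 3 guides with the shared seed took 5.78% ± 1.39 (SD, n = 3) of the reads in AG, 40.8% ± 20.0 (n = 7) in TI and 19.8% ± 11.4 (n = 8) in TIM. The make-up of this sum changed with its size. miR-148a-3p was 90.7% to 94.8% of it in AG, 96.5% to 99.9% in TI and 97.2% to 99.8% in TIM. miR-152-3p was 6.28% ± 1.96 of the sum in AG, 0.30% ± 0.599 in TI and 0.442% ± 0.489 in TIM, and miR-148b-3p was 1.45% ± 0.244, 0.361% ± 0.663 and 0.539% ± 0.406 (SD, n = 3, 7 and 8). The TI means were carried by library 5, without which miR-152-3p was 0.0745% ± 0.0522 and miR-148b-3p 0.111% ± 0.0299 of the sum (SD, n = 6). In TIM miR-152-3p was 0.280% ± 0.182 (SD, n = 7) without library 2, where it was 1.58%. The reads of miR-148a-3p per read of miR-152-3p, a ratio within a library that no scaling changes, ranged from 11.8 to 23.5 in AG, 58.3 to 8760 in TI and 61.6 to 2282 in TIM. Even TI library 5, with little miR-148a-3p, had a higher ratio than AG.

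**Figure D3:**
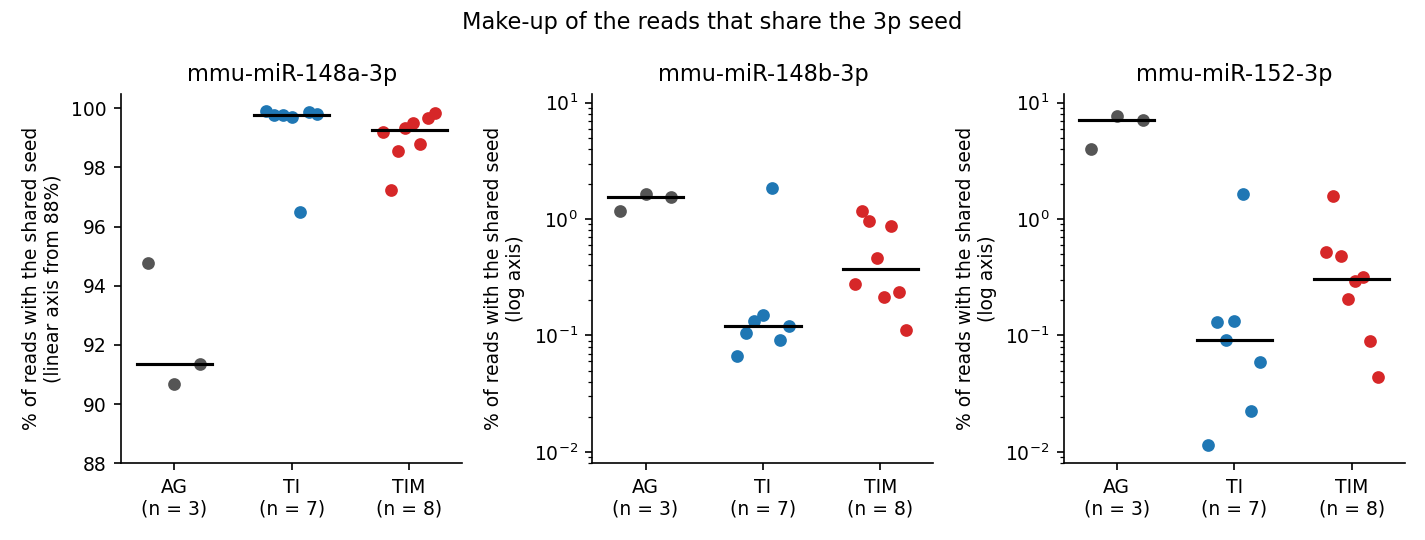
Points give the percent of the reads with the shared seed that each guide supplied in each library (miR-148a-3p on a linear axis from 88%, the others on a log axis), and lines the median of AG (n = 3), TI (n = 7) and TIM (n = 8). miR-148a-3p supplies at least 96.5% in every tumor library and at most 94.8% in AG, and the highest miR-148b-3p percent is that of TI library 5.

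The 5p arms of Mir148b and Mir152 were not used to choose the members and were tested in a model over all miRNAs (limma on log2(CPM + 1), Benjamini-Hochberg adjusted over 726 miRNAs, threshold 0.05). The background was wide: 55.8% of the miRNAs passed for TI against AG (26.4% higher and 29.3% lower in TI), 51.4% for TIM against AG (25.5% higher and 25.9% lower) and 5.23% for TIM against TI (3.44% higher and 1.79% lower in TIM). The groups did not overlap in CPM for 46.4%, 43.1% and 0.275% of the miRNAs in these 3 comparisons. A call or a lack of overlap against AG was thus common.

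miR-152-5p fell in both tumor types. It was at 49.7, 44.8 and 39.4 CPM in AG. In TI it was at 0.635 at the lowest, 4.95 at the median and 7.61 at the highest, and in TIM at 1.97, 3.77 and 12.7. No tumor library overlapped with AG. The log2 difference was -3.40 (SE 0.53, limma adjusted p = 3.29e-05) in TI and -3.07 (SE 0.52, limma adjusted p = 8.24e-05) in TIM, and each of 10 alternatives and 18 fits without 1 library kept both past the threshold. Without TI library 5 the difference in TI was -3.48 (SE 0.54, limma adjusted p = 3.73e-05). TIM against TI was at 0.34 (SE 0.40, limma adjusted p = 0.68). The reads of miR-152-3p per read of miR-152-5p were 64.3 to 103 in AG, 53.1 to 235 in TI and 64.9 to 159 in TIM, with the AG range inside that of TI.

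miR-148b-5p was lower in tumors by less, as miR-148b-3p was. It was at 28.7, 28.5 and 35.0 CPM in AG, between 18.7 and 23.4 in TI with a median of 21.0, and between 14.0 and 24.1 in TIM with a median of 19.5. The tumors did not overlap with AG. It fell in TIM by the test (log2 difference -0.66, SE 0.24, limma adjusted p = 0.027) and was at -0.52 in TI (SE 0.24, limma adjusted p = 0.073), or -0.55 (SE 0.25, limma adjusted p = 0.064) without TI library 5. The TIM call was lost on totals without miR-148a-3p (-0.09, limma adjusted p = 0.83), without the TMM factor (-0.33, limma adjusted p = 0.45) and without any 1 of the AG libraries (limma adjusted p = 0.066 without library 1, 0.061 without library 2 and 0.13 without library 3). TIM against TI was at -0.14 (SE 0.18, limma adjusted p = 0.71). The 3p reads per 5p read of this hairpin were 25.2 to 32.4 in AG, 21.4 to 35.6 in TI and 24.0 to 43.3 in TIM, the narrowest spread of the 3 hairpins.

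**Figure D4:**
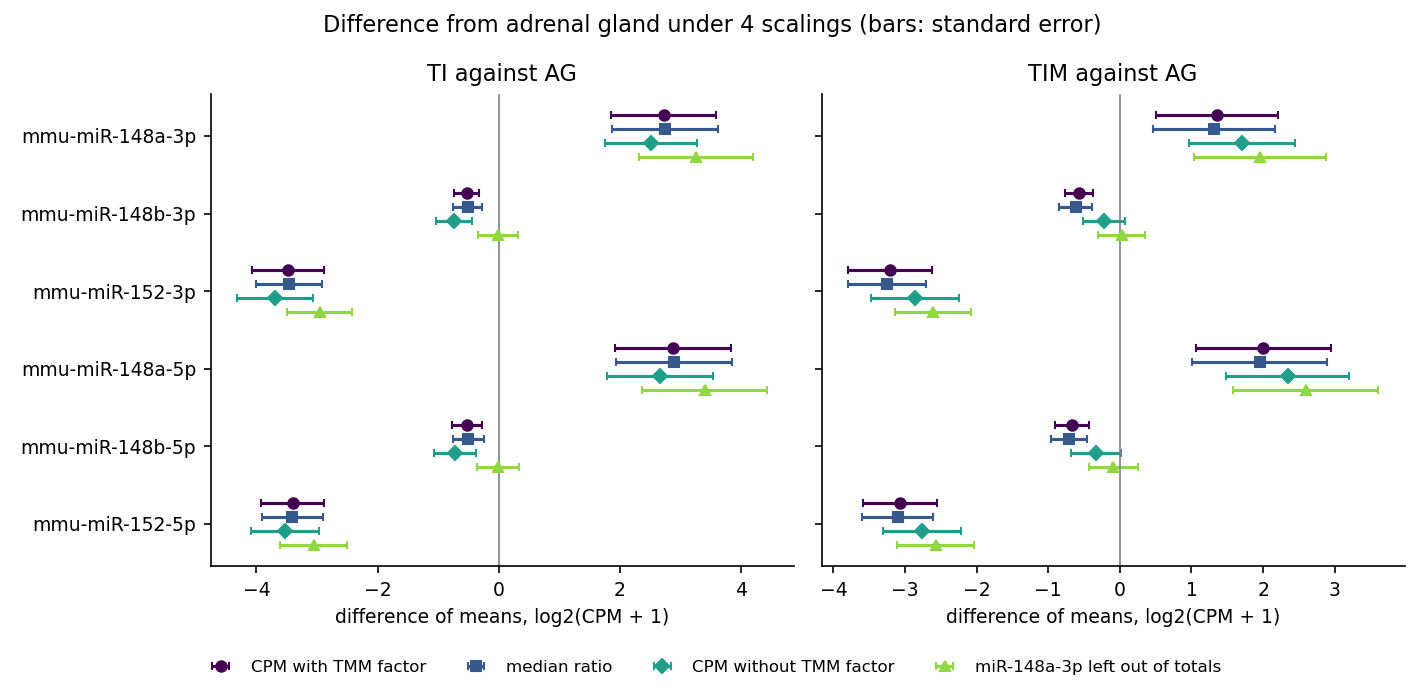
Symbols give the difference of the mean log2(CPM + 1) of each arm between TI and AG (left) and TIM and AG (right) under 4 scalings, and bars the standard error of the fit. The miR-148a arms stay above 0 and the miR-152 arms below it under all 4 scalings, while both miR-148b arms come close to 0 on totals that leave out miR-148a-3p.

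How the arms varied between the 15 tumor libraries was compared on the log2 of reads relative to the reads of all miRNAs but miR-148a-3p, with permutation tests of 5 relations of miR-148a-3p adjusted together. miR-148a-3p rose with miR-148a-5p (Pearson r = 0.90, permutation p = 2e-05, adjusted 0.0001; Spearman rho = 0.76, permutation p = 0.00149, adjusted 0.00745). Without the 2 libraries farthest from the median, TI libraries 5 and 6, r was 0.84 (permutation p = 0.00035). Within TI r was 0.92 (exact permutation p = 0.031, adjusted 0.078) and within TIM 0.85 (exact permutation p = 0.021, adjusted 0.11), so that neither group alone passed after adjustment. By rank the relation was weaker within the groups. There rho was 0.64 in TI (exact permutation p = 0.14, adjusted 0.35) and 0.52 in TIM (exact permutation p = 0.20, adjusted 0.45).

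Over all 15 tumor libraries, miR-148a-3p showed no relation past the threshold with the guides of the other hairpins. With miR-148b-3p r was 0.45 (permutation p = 0.093, adjusted 0.16) and rho 0.34 (permutation p = 0.22, adjusted 0.36) over 15 libraries, and r was -0.10 (permutation p = 0.75) without the 2 farthest. The within-group values pointed in opposite directions, with r = 0.88 in TI (exact permutation p = 0.0030, adjusted 0.015), which passed, and -0.33 in TIM (exact permutation p = 0.44, adjusted 0.54), a difference that was not tested. By rank the relation in TI did not pass (rho = 0.89, exact permutation p = 0.012, adjusted 0.062). Both guides were divided by the same reads, which were 38.1% to 97.7% of a TI library. The share of miR-148b-3p in all reads ran only from 0.0389% to 0.0603% there. The test in TI therefore cannot tell a relation of the 2 guides from the effect of the shared denominator. On CPM without the TMM factor r was -0.34 over the 15 libraries. With miR-152-3p r was -0.23 (permutation p = 0.41, adjusted 0.50) and rho -0.26 (permutation p = 0.34, adjusted 0.38), r was -0.36 (permutation p = 0.22) without the 2 farthest, -0.05 within TI and -0.39 within TIM (exact permutation p = 0.87 and 0.34, adjusted 0.87 and 0.54).

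Depth and scaling were examined in the same way. The log2 total of reads gave r = -0.19 (permutation p = 0.50, adjusted 0.50) and rho = -0.24 (permutation p = 0.38, adjusted 0.38), r = 0.15 (permutation p = 0.62) without the 2 farthest, -0.52 within TI and 0.19 within TIM (exact permutation p = 0.19 and 0.63, adjusted 0.32 and 0.63). The TMM factor was lower in libraries with more miR-148a-3p by rank (rho = -0.72, permutation p = 0.0035, adjusted 0.00875), while r was -0.51 (permutation p = 0.054, adjusted 0.14). That r was -0.80 (permutation p = 0.00084) without the 2 farthest and -0.76 (permutation, adjusted p = 0.0028) without TI library 5. Within TI r was -0.32 and within TIM -0.67 (exact permutation p = 0.42 and 0.063, adjusted 0.53 and 0.16). A low TMM factor raises every CPM of its library. The factor is itself computed from the reads of the library, and a large share of a single miRNA leaves fewer reads for the rest. A negative relation can thus arise from the scaling alone, which a test against independence cannot tell apart.

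The arm pairs of the other hairpins were added after the values were seen. For Mir152, r was 0.84 (permutation p = 0.00012, adjusted over the 2 pairs 0.00015) and rho 0.78 (permutation p = 0.00085, adjusted 0.00161), and r was 0.67 (permutation p = 0.011) without TIM library 1 and TI library 1, 0.83 within TI and 0.85 within TIM (exact permutation p = 0.016 and 0.0082). For Mir148b, r was 0.83 (permutation p = 0.00015, adjusted 0.00015) and rho 0.76 (permutation p = 0.00161, adjusted 0.00161), and r was 0.78 (permutation p = 0.00155) without TI libraries 5 and 6, 0.94 within TI and 0.79 within TIM (exact permutation p = 0.0062 and 0.020). On the deposited CPM scale r stayed at 0.88 for Mir148a (permutation p = 3e-05) and 0.88 for Mir152 (permutation p = 2e-05) but was -0.02 for Mir148b (permutation p = 0.94). On CPM without the TMM factor r was 0.84, 0.90 and 0.86 for Mir148a, Mir152 and Mir148b (permutation p = 0.0002, 2e-05 and 0.00015). The arms of a library share its denominator, and the relation of the miR-148b arms was absent on 1 of the 3 scales.

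**Figure D5:**
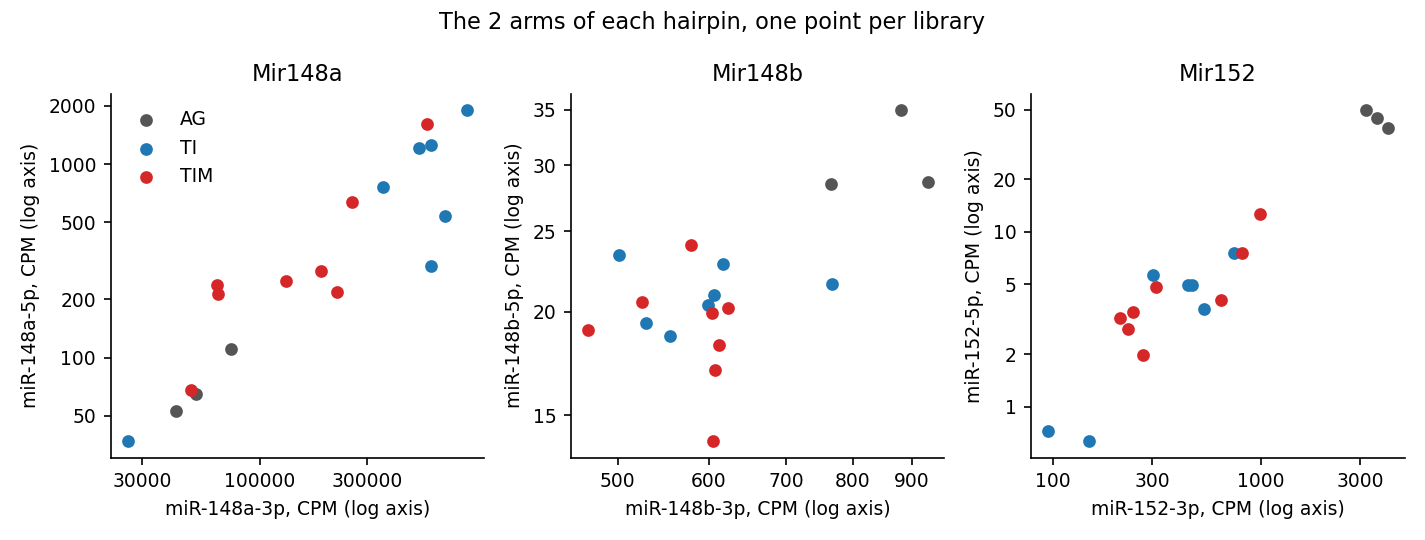
Points give the level in CPM (log axes) of the 3p arm (x) and the 5p arm (y) of each hairpin in each library of AG (grey), TI (blue) and TIM (red). Tumor libraries line up for Mir148a (r = 0.88) and Mir152 (r = 0.88) and not for Mir148b (r = -0.02), and AG lies at the low end for Mir148a and the high end for Mir152.

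By rank, the miRNAs most like each member across the 15 tumor libraries were sought among the 394 miRNAs whose mean there reached 10 CPM, as a description of libraries that share their scaling. For miR-148a-3p they were miR-148a-5p (Spearman rho 0.84), miR-196a-5p (0.75) and miR-344c-3p (0.74), and miR-148b-3p came at place 110 (0.26) and miR-152-3p at place 331 (-0.34). For miR-148a-5p they were miR-148a-3p (0.84), miR-323-3p (0.82) and miR-541-3p (0.80). For miR-148b-3p they were miR-672-5p (0.66), miR-218-2-3p (0.56) and miR-503-5p (0.54), with its own partner arm miR-148b-5p at place 169 (-0.02). For miR-152-3p they were miR-455-5p (0.85), miR-22-3p (0.85) and miR-22-5p (0.84). The 3 guides with the shared seed were thus not neighbors of each other by this measure.

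Other miRNAs known to target DNA methyltransferases were taken as a list of 6, namely miR-29a-3p, miR-29b-3p and miR-29c-3p, which target the de novo enzymes, and miR-126a-3p, miR-185-5p and miR-342-3p, which target DNMT1. For TI against AG 4 of 6 passed, 1 higher and 3 lower, beside the 55.8% of all miRNAs, and the median log2 difference was -1.94 against -0.01 over all tested. The count for TI was 6 of 6, 1 higher and 5 lower, without TI library 5 (431 of 721 over all tested) and likewise without TIM library 2 (415 of 721), which enters through the shared spread. It was 3 of 6 without any 1 of the AG libraries, where the calls over all tested also fell. These were 294 of 710, 332 of 713 and 331 of 712 without AG library 1, 2 and 3. For TIM against AG 6 of 6 passed, 1 higher and 5 lower, beside 51.4%, with a median of -2.71 against 0.18, and 4 of 6 passed without any 1 of the AG libraries. The calls over all tested fell there too, to 227 of 710, 278 of 713 and 266 of 712 without AG library 1, 2 and 3. By edgeR on the recovered reads, 3 of 6 passed for TI and 2 of 6 for TIM, beside 399 and 351 of 726 over all tested. For TIM against TI 0 of 6 passed with limma (38 of 726 over all tested), where 1 had an unadjusted p under 0.05. With edgeR 0 passed (3 of 726) and with DESeq2 1 (123 of 726), and the median with limma was -0.52 against 0.06. Without TI library 5, miR-342-3p passed as lower in TIM (-1.12, SE 0.32, limma adjusted p = 0.038).

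miR-342-3p rose, from 29.0 to 46.3 CPM in AG to 143 to 608 in TI (log2 difference 2.88, SE 0.43, limma adjusted p = 2.1e-05) and 66.4 to 232 in TIM (1.91, SE 0.42, limma adjusted p = 0.0011). miR-126a-3p, which also marks endothelium, fell from between 37016 and 44387 CPM in AG to 1621 to 6448 in TI (-3.63, SE 0.46, limma adjusted p = 3.3e-06) and 2314 to 8581 in TIM (-3.18, SE 0.45, limma adjusted p = 1.3e-05). miR-29a-3p fell from 3862 to 4499 CPM in AG to 199 to 2641 in TI (-2.60, SE 0.93, limma adjusted p = 0.024) and 145 to 3688 in TIM (-2.99, SE 0.91, limma adjusted p = 0.012). The TI call of miR-29a-3p was lost without any 1 of the AG libraries (limma adjusted p = 0.063 to 0.067), and edgeR called it in neither tumor type (adjusted p = 0.057 and 0.054). The miR-29 guides varied widely among tumors.

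miR-29b-3p and miR-29c-3p passed for TIM (-2.62 and -2.81, limma adjusted p = 0.026 and 0.012) and were at -1.98 and -1.90 in TI (limma adjusted p = 0.082 and 0.072), where both passed without TI library 5 (-2.31 and -2.15, limma adjusted p = 0.038 and 0.043). The TIM call of miR-29b-3p was lost without any 1 of the AG libraries (limma adjusted p = 0.070 to 0.073), with edgeR and DESeq2 (adjusted p = 0.14 and 0.082) and on totals without miR-148a-3p (limma adjusted p = 0.056), and that of miR-29c-3p with edgeR (adjusted p = 0.070). miR-185-5p fell by 1.31 on the log2 scale in TI (SE 0.41, limma adjusted p = 0.011) and by 0.99 in TIM (SE 0.40, limma adjusted p = 0.047), the latter a call that held in 6 of 18 fits without 1 library. On totals without miR-148a-3p the calls of miR-185-5p were lost in TI (limma adjusted p = 0.082) and in TIM (-0.39, limma adjusted p = 0.37). For TIM edgeR did not call it (adjusted p = 0.078) and DESeq2 did (adjusted p = 0.025), and 7 of 8 TIM libraries lay below AG. Of the DNMT1-targeting miRNAs, miR-342-3p was thus higher in tumors, as miR-148a-3p was in most, and miR-126a-3p was lower, as miR-152-3p was. The fall of miR-185-5p was smaller and depended on the scaling.

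Marker miRNAs of other cell types also differed between the groups, and 22 were summed within 9 types, none of them at 0 in any library (0 of 396 values). The endothelial sum of both miR-126a arms was 38529 to 46092 CPM in AG, 1704 to 6736 in TI and 2428 to 8943 in TIM, and the smooth muscle sum of miR-143-3p and miR-145a-5p was 121198 to 209015, 15784 to 171131 and 16015 to 101007. Leukocyte markers (4 miRNAs) summed to 414 to 602 CPM in AG, 51.1 to 333 in TI and 67.5 to 212 in TIM. On the deposited CPM scale all 3 sums were lower in tumors, as the miR-152 arms were, with overlap only for smooth muscle in TI. Single markers overlapped with AG more often than the sums. miR-145a-5p did so in TIM too (highest 312 CPM, against a lowest of 311 in AG), and the leukocyte marker miR-142a-3p in TI, where 5 of 7 libraries lay below AG. Both miR-126a arms and the remaining leukocyte markers did not overlap. Other scalings of the marker sums were not examined, and their part in the fall of miR-152 was not tested.

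miR-122-5p, the defining miRNA of liver, where miR-148a is abundant, was at 780 to 2592 CPM in AG, 4.68 to 48.1 in TI and 4.25 to 82.4 in TIM. The markers of liver, gut and kidney epithelium (3 miRNAs) summed to 2818 to 4476 CPM in AG, 269 to 1170 in TI and 378 to 995 in TIM. Both were below AG in every tumor library, TI library 5 with its low miR-148a-3p included, and their part in the level of miR-148a-3p was not tested. Epithelial markers (4 miRNAs) ranged from 48.8 to 373 CPM in AG, 15.1 to 1506 in TI and 8.10 to 350 in TIM, and erythroid markers (2 miRNAs) from 516 to 1891, 222 to 3649 and 94.6 to 2056, with overlap between all groups. Each epithelial marker had a higher mean in TI than in AG (1.65-fold to 6.80-fold). In TIM they split, with miR-200a-3p and miR-200b-3p at 0.411-fold and 0.379-fold, miR-141-3p at 1.04-fold and miR-200c-3p at 1.94-fold the AG mean.

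Neuroendocrine markers (miR-375-3p and miR-7a-5p) summed to 44909 to 107677 CPM in AG, 25729 to 246328 in TI and 32236 to 228674 in TIM. The 2 went opposite ways by mean, each with overlap between the groups. miR-375-3p was lower in tumors (22018 CPM in AG, 9442 in TI and 8191 in TIM). miR-7a-5p, the larger part of the sum, was higher (60999, 75923 and 88688 CPM). Neuronal markers (miR-124-3p and miR-9-5p) summed to 365 to 590 CPM in AG, 3782 to 13257 in TI and 5059 to 18879 in TIM, higher in every tumor library, TI library 5 included. Their part in the rise of miR-148a-3p was not tested.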

How the data were processed

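For RNA extraction from tissue the labels name TRIzol, while the study's methods describe a column kit for tumors and organs. The submitters' processing notes name cutadapt 2.8, Bowtie2 2.3.5.1 against mm10, featureCounts 2.0.0 and edgeR 3.40. The deposited signal is CPM per miRNA, for which the total of a library was scaled by its TMM factor. The 9 columns of the authors' own comparisons (fold change, p-value, FDR) were not used.

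One read's worth was found from the low values of each library, and 100% of values were whole reads within 0.001 read. Shares, ranks and ratios used these reads. The main test was limma 3.58.1 (R 4.3.3, eBayes with trend) on log2(CPM + 1) for the 726 of 1966 miRNAs that reached 1 CPM in 3 or more libraries, all 18 libraries in one model. On the recovered reads edgeR 4.0.16 (quasi-likelihood) called 399, 351 and 3 miRNAs for TI against AG, TIM against AG and TIM against TI, where limma called 405, 373 and 38, and DESeq2 1.42.0 called 437, 423 and 123. Relations used 100000 permutations or every permutation within a group, two-sided (Python 3.11.15, scipy 1.17.1). Scripts were tested on simulated data. No 2 libraries were identical (0 pairs).

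The members and lists were chosen with earlier results of these data known. Named miRNAs are the members, the other arms, the list of 6, the cell type markers, the 5 largest mean shares per group and the 3 most like miRNAs per member. Of the deposited names 1675 of 1966 matched the RefSeq mature table.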

Additional observations from a re-analysis of the deposited data

Results flagged for a closer look

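In the group of 7 TI libraries, miR-148a-3p in library 5 lay far from the others on the log2(CPM + 1) scale: its gap to the next library was 0.753 of the whole range of the group, above the Dixon critical value of 0.568 for 7 samples. It was at 25964 CPM there and at 352725 CPM or more in the remaining TI libraries. Of 24 such comparisons made over the arms and the list of other miRNAs in TI and TIM, 1 was above its critical value, where 1.2 would be given by chance. The count is thus no more than chance would give. The level of the members was also known when they were chosen, so the ratio only describes TI library 5. miR-148a-5p was also lowest in that library, at 37.0 CPM, while miR-152-3p was at the median of its group (445 CPM).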

How the results depend on the processing

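miR-148a-3p, miR-148a-5p and miR-152-3p kept the sign of their difference from AG under each of 5 alternatives of scaling and pseudocount, and miR-152-5p stayed past the threshold in both tumor types under each of 10. For miR-148b-3p the log2 difference was -0.74 (TI against AG), -0.22 (TIM against AG) and 0.52 (TIM against TI) without the TMM factor, and -0.0051 and 0.026 against AG on totals without miR-148a-3p. For miR-148b-5p it was -0.33 in TIM against AG and reversed to 0.39 (limma adjusted p = 0.27) in TIM against TI without the TMM factor, -0.091 in TIM against AG on totals without miR-148a-3p, and -0.52 in TI with DESeq2 (adjusted p = 0.023), past the threshold. Without 1 library each, it ranged from -0.71 to -0.57 in TIM against AG (limma adjusted p = 0.023 to 0.13). Of the 6 other miRNAs that target DNA methyltransferases, edgeR called 2 in TIM against AG, beside 351 of 726 over all tested. In TIM against TI, 1 passed without the TMM factor (155 of 726 over all tested) and with DESeq2 (123 of 726). Without 1 library each 0 to 1 passed, the 1 being without TI library 5 (49 of 721 over all tested). miR-29a-3p in TIM against TI reversed to 0.16 without the TMM factor. The relation of miR-148a-3p with miR-148b-3p reversed to r = -0.34 on CPM without the TMM factor (permutation, adjusted p = 0.27). That with the TMM factor was -0.67 on CPM (permutation, adjusted p = 0.017), which contains the factor, and ranged from -0.76 to -0.46 without 1 library each. The cause of these changes was not tested. Of the arms, depth limits miR-152-5p most, above all in TI libraries 1 and 6. No paired analysis was made, since the labels name no pairs, and AG were CRE - while the tumors were CRE +. Library columns also bear no number that ties them to the labelled samples.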
